A study of Mus musculus with 9 samples.

Results

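Milk carries proteins that bind, starve or neutralise microbes, and 8 of their genes were followed here in the RNA of the milk fat layer: Cd14, Lbp, Ltf, Lcn2, Lpo, Slpi, Pigr and Spp1. They were taken by gene symbol, 8 of the 11206 genes listed in at least 1 library, by a rule that uses no measured value, though earlier results of these data were known when they were picked. The samples were from primiparous female ICR mice, an outbred CD1 stock, milked on lactation day 10. The control diet of 5 dams drew 10% of its energy from fat (3.85 kcal per gram). The high fat diet of the other 4 drew 60% from it (5.24 kcal per gram), and sucrose gave 7% of the energy in both. Feeding began at 4 weeks of age, 4 weeks before mating, and went on through pregnancy and lactation. Dams were housed in pairs within a diet before mating and are not tied to cages in the labels, so the tests treat them as independent without that being known.

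Fat globules leave the mammary epithelial cell wrapped in its membrane and can trap some of its cytoplasm, so RNA of the fat layer is largely a sample of the secreting epithelium. Secreted defence proteins of milk act in several ways. Some withhold iron, some recognise bacterial lipopolysaccharide, and others oxidise substrates, inhibit proteases or carry antibodies into the lumen. Several of these genes are also known as acute-phase genes, which NF-kB, STAT3 and C/EBP factors can induce in epithelium, and several are also made by neutrophils or macrophages.

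On the high fat diet the transcripts of 5 of the 8 genes, Slpi, Spp1, Lbp, Lpo and Lcn2, were lower, and those of Ltf, Cd14 and Pigr did not pass the test. The lower calls came from limma on log2(FPKM + 1), adjusted over all 7983 tested genes, where FPKM is the number of fragments corrected for the length of the transcript and the size of the library. The same test called 20.8% of all tested genes lower and 0.00% higher. The median log2 fold change of the 8 genes was -1.89, beside a median of -1.08 over all tested genes, and 7 of the 8 lay below that median. With 0.1 in place of 1 added to FPKM, the medians were -2.49 and -2.09, and 5 of the 8 lay below. After median-of-ratios scaling, which sets the libraries to a common level over genes listed in all 9, limma called 0 members and 0.00% of genes lower. On that scale 4 members had an unadjusted p under 0.05, with 1600 lower and 53 higher genes in all. The calls on the deposited values also depended on the dams and settings of the fit: 0 members were called by limma without high fat dam 2, 3 or 4, without a filter or with a pseudocount of 0.1. At an unadjusted p under 0.05, the same fits held 5, 4, 5, 6 and 6 members. Of all 7907, 7972, 7931, 11206 and 7983 genes tested in them, 3338, 2273, 2912, 3931 and 3178 were lower at that p. Higher genes numbered 7, 4, 8, 20 and 0. Lbp and Lpo entered the test through the control dams, and their missing rows in high fat dams counted as 0. With unlisted genes set to 1, limma called 1 of the 8 genes, Slpi, and 87 of all 7983 tested genes. FPKM is relative to the size of the library, so it does not measure the total RNA of a sample. Fewer cells that express a gene and less of its RNA per cell cannot be told apart in such bulk RNA.

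Each dam gave 1 library, named here by its dam. Libraries differed in how many genes they listed. Control dams listed 7098 to 8903 genes above 1 FPKM. High fat dam 1 listed 7974, and dams 2, 3 and 4 listed 5124, 2075 and 4986. The summed FPKM of nuclear protein-coding genes was 69840 to 187200 in the control dams. It was 134700, 63380, 25470 and 62560 in high fat dams 1 to 4, and the cause was not tested. The median listed gene rested on an estimated 20.0 to 41.1 fragments in the control dams and on 28.6, 13, 7.64 and 27.8 in high fat dams 1 to 4. All 13 luminal secretory epithelium markers were listed in at least 1 library, among them the caseins and Wap. Their summed level was 14330 to 30160 FPKM in the control dams and 28420, 4684, 11460 and 15870 in high fat dams 1 to 4. Of 12 tested, limma called 4 lower, beside 20.8% of all tested genes. Their median log2 fold change was -1.39, against -1.08 over all, and -0.15 after median-of-ratios scaling, against -0.55. Of 9 basal and myoepithelial markers, 4 were listed in at least 1 library. Acta2, 1 of these, was at 2.94 to 6.47 FPKM in the control dams and listed in 3 high fat dams at up to 4.14. Of 6 adipocyte and 6 endothelial markers, 1 each was listed, in control dam 5 alone. None of the markers of fibroblasts, B and plasma cells, T and NK cells, erythroid cells or liver was listed in any library, although the immunoglobulin genes Ighm and Igkc, which B and plasma cells also express and which were not among those markers, were listed in high fat dam 3 at 2.69 and 3.25 FPKM.

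On the control diet, the levels fell into a high and a low tier. FPKM is scaled to transcript length, so it can be compared between genes. Lcn2 was at 391 ± 186 FPKM, Ltf at 217 ± 47.1 and Spp1 at 193 ± 150 (SD, n = 5). The low tier held Cd14 at 18.2 ± 7.65, Slpi at 16.5 ± 10.2, Lbp at 9.72 ± 5.14, Pigr at 5.84 ± 2.73 and Lpo at 2.09 ± 1.15 (SD, n = 5). Of the 7 neighbouring pairs in this order, Spp1 and Cd14 alone had control ranges that did not overlap. Lcn2 lay above Ltf, Lbp above Pigr and Pigr above Lpo in 5 of 5 control dams, while Ltf lay above Spp1 in 3, Cd14 above Slpi in 2 and Slpi above Lbp in 3. Lcn2, Ltf and Spp1 made up 89.7% to 95.7% of the summed FPKM of the 8 genes in the control dams and 84.1% to 94.4% in the high fat dams. That sum was 450 to 1196 FPKM on the control diet and 665, 168, 35.7 and 167 on the high fat diet.

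**Figure D1:**
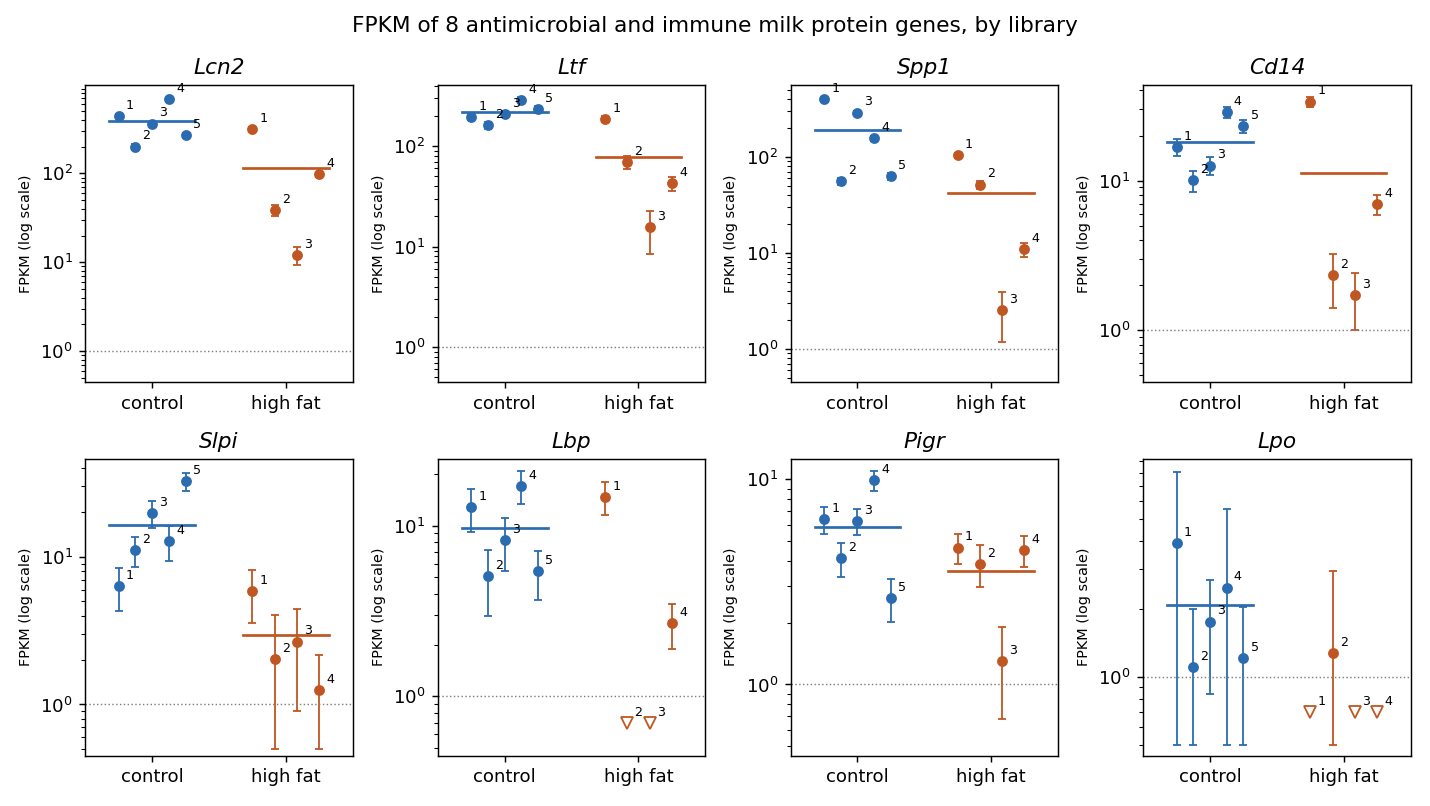
FPKM of the 8 genes in each library on a log axis, with control diet in blue and high fat diet in orange, numbers giving the replicate, error bars the deposited confidence bounds (cut at 0.5) and horizontal lines the group means. Open triangles mark unlisted genes (at or below 1 FPKM, dotted line). High fat dam 1 lies within or above the control range for Lcn2, Ltf, Spp1, Cd14, Lbp and Pigr, and high fat dam 3 is lowest or unlisted except for Slpi.

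Recognition of lipopolysaccharide is the task of Lbp and Cd14. The LPS-binding protein encoded by Lbp extracts lipopolysaccharide from bacterial membranes and hands it to the co-receptor CD14, which passes it to TLR4 and its partner MD-2 (Ly96). Lbp (chromosome 2, 158306493 to 158332852, plus strand, GRCm38) was at 12.8, 5.07, 8.24, 17.1 and 5.41 FPKM in control dams 1 to 5. It was at 14.7 in high fat dam 1, unlisted in 2 and 3 and at 2.68 in 4. All control dams thus listed it, and 1 of the 4 high fat dams reached the control range. Its log2 fold change was -1.83 (SE 0.635, limma adjusted p = 0.0386), and an exact permutation test gave p = 0.0873. Lbp entered the test through the control dams, and its missing rows counted as 0. With unlisted genes set to 1 its log2 fold change was -1.33 (limma adjusted p = 0.0700). Each listed FPKM rested on an estimated 22.7 to 86.1 fragments. The call held without high fat dam 1 (adjusted p = 0.00328) and ended without any 1 of the other libraries, with limma adjusted p between 0.0531 without control dam 2 and 0.183 without high fat dam 3. The log2 fold change was -2.66 with high fat dam 1 left out and -1.34 with dam 2 or dam 3 left out.

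Cd14, a gene on chromosome 18, was at 16.8, 10.0, 12.6, 28.7 and 23.1 FPKM in control dams 1 to 5. It was at 33.7, 2.33, 1.70 and 6.98 in high fat dams 1 to 4. High fat dam 1 was thus the highest of all 9 libraries, while the other 3 lay below every control. The diets did not pass as different (log2 fold change -1.35, 95% interval -2.75 to 0.05, limma adjusted p = 0.109). The gene passed as lower without high fat dam 1, at a log2 fold change of -2.12 (limma adjusted p = 0.0115), where 68.9% of all tested genes were called lower.

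Neutrophil markers stood apart in high fat dam 1, and of the macrophage markers Lyz2 alone in high fat dam 3. The skimmed fat had been mixed with buffered saline and centrifuged once more to remove cells before RNA was extracted, per the labels. Of 13 neutrophil markers other than Ltf and Lcn2, 2 were listed in each control dam, 5 in high fat dam 1 and 0 in high fat dam 2 to 4. Their summed level was 4.44 to 15.5 FPKM on the control diet and 97.1 in high fat dam 1. There S100a8 and S100a9, the subunits of calprotectin, were at 40.9 and 48.3 FPKM, and Csf3r, Retnlg and Itgam were at 3.94, 1.35 and 2.67. The granule genes Elane, Mpo, Camp and Ngp and the surface marker Ly6g were unlisted in every library. Of 14 macrophage and monocyte markers other than Cd14, 5 were listed anywhere. Control dams listed 1 to 3 of them each, and high fat dams 1 to 4 listed 3, 1, 2 and 0. Their summed level was 1.08 to 8.18 FPKM on the control diet and 5.52, 1.16, 23.9 and 0 in high fat dam 1 to 4, of which Lyz2 made up 22.4 in high fat dam 3. Adgre1 and Csf1r, which define macrophages, were unlisted throughout. The part of such cells in the levels of Cd14, Lcn2 and Ltf was not tested.

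Lactoferrin and lipocalin 2 withhold iron from bacteria. Lactoferrin, the product of Ltf, binds free ferric iron, and lipocalin 2, the product of Lcn2, captures the siderophores with which bacteria scavenge iron. Ltf (chromosome 9, 111019271 to 111042767, plus strand) was at 196, 162, 209, 289 and 232 FPKM in control dams 1 to 5. It was at 187, 69.1, 15.5 and 42.8 in high fat dams 1 to 4. High fat dam 1 lay inside the control range and the other 3 lay below it. In FPKM as deposited, which carries the scale of each library, Ltf was the steadiest member on the control diet. Its coefficient of variation was 21.7%, against 96.1% on the high fat diet. Its log2 fold change was -1.95 (SE 0.877, limma adjusted p = 0.0771), which did not pass, and an exact permutation test without adjustment gave p = 0.0159. Ltf passed as lower once high fat dam 1 was left out (log2 fold change -2.54, limma adjusted p = 0.0148).

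Lcn2 (chromosome 2, 32384633 to 32388252, minus strand) was at 440, 200, 363, 681 and 268 FPKM in control dams 1 to 5. It was at 315, 38.5, 12.0 and 97.8 in high fat dams 1 to 4. As for Ltf, only high fat dam 1 reached the control range. The log2 fold change was -2.50 (SE 0.911, limma adjusted p = 0.0436, exact permutation test p = 0.0238). Even the lowest value rested on an estimated 77.7 fragments. Among nuclear protein-coding genes Lcn2 ranked 24 to 34 from the top in the control dams and 29, 145, 82 and 33 in high fat dam 1 to 4. Leaving out high fat dam 1 gave a log2 fold change of -3.28 (limma adjusted p = 0.00751), and without control dam 2 the call held as well (adjusted p = 0.0395). It ended without any 1 of the others, with limma adjusted p of 0.0700 without control dam 1 to 0.150 without high fat dam 3, where the log2 fold change was -1.74.

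Set against the summed FPKM of nuclear protein-coding genes of the same library, which removes a common library scale, Lcn2 was the 1 member whose diets did not overlap. In parts per 1000000 it took 2368 to 3637 on the control diet and 2337, 607, 473 and 1563 in high fat dams 1 to 4. High fat dam 1 thus lay just under the lowest control. On this scale 6.46% of all tested genes lay lower without overlap, and limma after this scaling gave Lcn2 an adjusted p of 0.110. Ltf took 1053 to 2318 such parts on the control diet and 609 to 1390 on the high fat diet, with overlap. Pigr took 24.0 to 59.1 such parts on the control diet and 34.4 to 72.4 on the high fat diet.

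**Figure D2:**
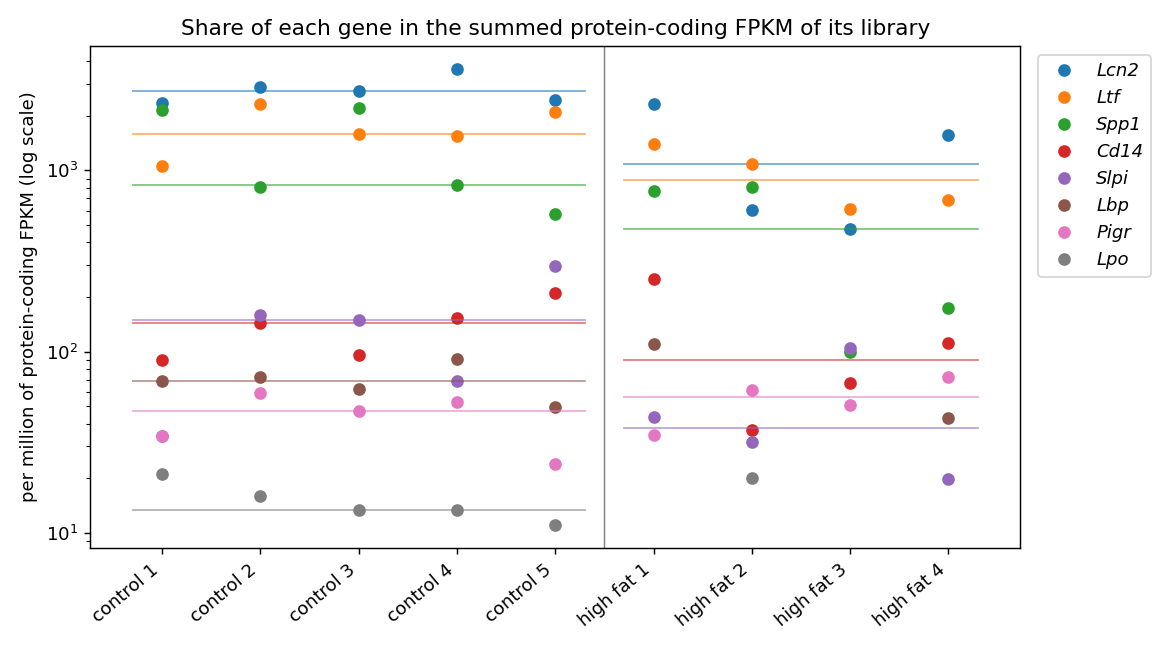
Share of each gene in the summed nuclear protein-coding FPKM of its library, in parts per 1000000, on a log axis, with 1 point per library and gene, lines at the group medians where all libraries of a diet listed the gene, and control dams to the left of the vertical line. Lcn2 lies at 2368 to 3637 in each control dam and at 473 to 2337 in the high fat dams, while Pigr overlaps between the diets.

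Lactoperoxidase, the product of Lpo, uses hydrogen peroxide to oxidise thiocyanate into an antibacterial product. Lpo (chromosome 11, 87806428 to 87828289, minus strand) was the least abundant member, at 3.90, 1.11, 1.76, 2.48 and 1.21 FPKM in control dams 1 to 5. In the high fat dams it was listed in 2 alone, at 1.27. The fragments estimated from the bounds were 2.31 to 14.7, and the lower confidence bound was 0 in control dam 1 and 4 and in high fat dam 2. The estimate was 3.57 in control dam 1 and 14.7 in control dam 3, where FPKM was lower, so it is not a plain count. The log2 fold change was -1.26 (SE 0.451, limma adjusted p = 0.0422), which is -0.18 relative to the median of all genes. Lpo entered the test through the control dams, and its missing rows counted as 0. With unlisted genes set to 1 its log2 fold change was -0.51 (limma adjusted p = 0.0700). The gene sat near the floor of the tables in every library. The call held without high fat dam 1 and without control dam 2 (limma adjusted p = 0.0243 and 0.0280) and ended without any 1 of the others, at 0.0615 without control dam 5 to 0.131 without high fat dam 3.

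The secretory leukocyte protease inhibitor encoded by Slpi blocks neutrophil elastase and cathepsin G and is itself antimicrobial. Slpi (chromosome 2, 164354070 to 164389095, minus strand) was at 6.33, 11.1, 19.8, 12.8 and 32.6 FPKM in control dams 1 to 5. It was at 5.87, 2.02, 2.67 and 1.25 in high fat dams 1 to 4. Slpi was the 1 member whose FPKM did not overlap between the diets, as 11.1% of all tested genes did not with the control diet higher. The margin was narrow: control dam 1 had confidence bounds of 4.27 to 8.39 and high fat dam 1 of 3.57 to 8.17. The log2 fold change was -2.09 (SE 0.641, limma adjusted p = 0.0291, exact permutation test p = 0.0159). High fat dams 2, 3 and 4 rested on an estimated 4.07, 9.10 and 7.30 fragments. The call held without control dam 1 or 2 or high fat dam 1 (limma adjusted p = 0.0246, 0.0289 and 0.00543). It ended without control dam 3, 4 or 5 (0.0871, 0.0531 and 0.0767) and without high fat dam 2, 3 or 4 (0.0792, 0.0818 and 0.0933). The annotated span of Slpi also holds the hairpin gene Mir7678 on the same strand.

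The stretch before the start of Slpi and that of Ltf are shown because each holds a match to the C/EBP motif TTGCNNAA, a factor family known to act on acute-phase genes, read on both strands and given in capitals. Slpi was called lower and Ltf was not, and binding was not measured. The sequences are from RefSeq (GRCm38.p6), 5′ to 3′ on the gene's strand, and RefSeq windows were matched for 6 of the 8 genes. The stretch of Slpi is chr2:164356508-164356757 on the minus strand, the 250 bases before the start that RefSeq gives, which lies inside the wider annotated span of Slpi above. That of Ltf is chr9:111019042-111019270 on the plus strand and ends 22 bases before the start, where an annotated exon begins. For Lcn2, 30 bases around the match are given, chr2:32387937-32387966 on the minus strand, which lie in an exon of a longer annotated Lcn2 transcript.
Slpi: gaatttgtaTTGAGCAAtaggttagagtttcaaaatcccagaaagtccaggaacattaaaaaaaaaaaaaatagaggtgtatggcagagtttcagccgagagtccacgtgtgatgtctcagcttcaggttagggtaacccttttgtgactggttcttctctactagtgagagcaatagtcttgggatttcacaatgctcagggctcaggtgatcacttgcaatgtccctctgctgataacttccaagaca
Ltf: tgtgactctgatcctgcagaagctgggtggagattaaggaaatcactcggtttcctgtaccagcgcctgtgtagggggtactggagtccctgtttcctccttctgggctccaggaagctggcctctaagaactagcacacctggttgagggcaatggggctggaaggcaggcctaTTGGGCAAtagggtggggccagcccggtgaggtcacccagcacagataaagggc
Lcn2: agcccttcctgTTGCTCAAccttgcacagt
The match lay 241 to 234 bases before the start in Slpi, 75 to 68 in Ltf and 216 to 209 in Lcn2. It was present in 3 of the 6 windows, counting the first window of each gene (Spp1 has a second, inside an exon, which also holds it), and in 9.55% of 27025 windows of that length over all genes. Neither the STAT motif TTCNNNGAA, which reads the same on both strands, nor the NF-kB motif was found in any of the members' windows. The NF-kB motif was searched on the gene's strand only. By the same searches these are held by 7.18% and 4.83% of all windows. The TATA box letters TATAAA were found in Spp1 alone, against 8.12% of all windows. A match is a description of these letters and not a measured binding site.

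The polymeric immunoglobulin receptor encoded by Pigr carries dimeric IgA across the epithelium and leaves its outer part on the antibody as secretory component. Pigr (chromosome 1, 130826684 to 130852249, plus strand) was at 6.36, 4.13, 6.23, 9.86 and 2.64 FPKM in control dams 1 to 5. It was at 4.64, 3.86, 1.30 and 4.53 in high fat dams 1 to 4. High fat dam 3 alone lay below the control range, and Pigr was the 1 member of the 8 with at least 3 high fat dams inside it. The log2 fold change was -0.57 (SE 0.588, 95% interval -1.74 to 0.60, limma adjusted p = 0.365). Relative to the median of all genes this is 0.51. The fold change was 0.43 after median-of-ratios scaling, 0.67 after quantile normalization and 0.28 after scaling to protein-coding FPKM, so its direction turned with the scale. Jchain and Igha, which encode the joining chain and the heavy chain of the IgA that Pigr carries, were unlisted in all 9 libraries. Igkc, which encodes a light chain that IgA can carry, and Ighm, the heavy chain of IgM, were listed in high fat dam 3 alone. Both were named after their values were seen.

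Osteopontin, the product of Spp1, is a phosphorylated integrin-binding protein abundant in milk that also acts as a cytokine. Spp1 (chromosome 5, 104435118 to 104441050, plus strand) was at 401, 56.2, 290, 156 and 62.8 FPKM in control dams 1 to 5. It was at 104, 51.4, 2.52 and 10.8 in high fat dams 1 to 4. In FPKM as deposited, control dams differed by 7.14-fold, the widest control range of the 8 genes on that scale. High fat dam 1 lay inside that range, 2 lay just under it and 3 and 4 were far lower. The log2 fold change was -2.74 (SE 0.883, limma adjusted p = 0.0322, exact permutation test p = 0.0476). The call held without control dam 2 or 5 or high fat dam 1 (limma adjusted p = 0.0324, 0.0373 and 0.0100). It ended without control dam 1, 3 or 4 (0.0633, 0.0893 and 0.0541) and without high fat dam 2, 3 or 4 (0.0570, 0.148 and 0.0955), and without high fat dam 3 the log2 fold change was -1.86. An exon of Spp1 overlaps one of Gm42793 on the same strand, a gene listed in none of the libraries.

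**Figure D3:**
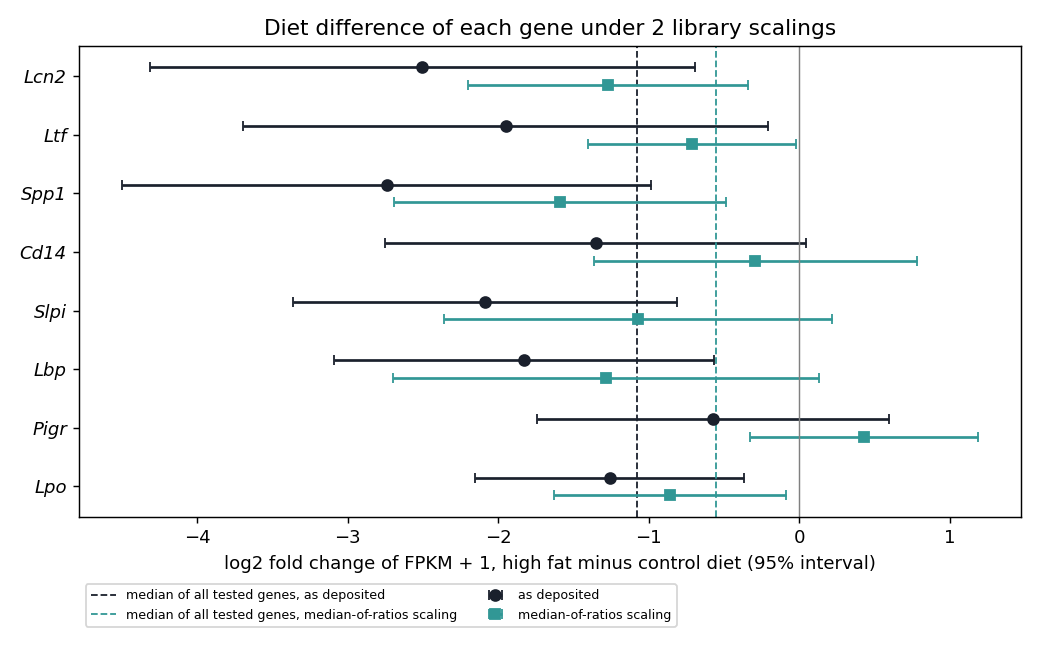
Log2 fold change of FPKM + 1 for each gene, high fat minus control diet, with 95% intervals from limma, as deposited (black circles) and after median-of-ratios scaling (teal squares). Dashed lines give the median of all tested genes, -1.08 and -0.55. Each of the 8 values is negative as deposited, and Pigr is positive at 0.43 after scaling.

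The ratio of a pair of members within a library is free of the library's scale. All 15 pairs of the 6 genes listed in every library were compared between the diets by exact permutation tests, adjusted by Benjamini-Hochberg. None passed, and the smallest adjusted p was 0.238. With a smallest possible p of 0.00794 over 15 pairs, a single pair could not have passed, so this does not show that the ratios are alike. The smallest unadjusted p, 0.0238, was that of Lcn2 to Pigr. This ratio was 69.2, 48.5, 58.3, 69.0 and 102 in control dams 1 to 5 and 67.9, 9.96, 9.29 and 21.6 in high fat dams 1 to 4. It was thus at the control level in high fat dam 1 and lower in the other 3. The ratio of Ltf to Lcn2, the pair of iron-withholding proteins, was 0.424 to 0.864 on the control diet and 0.595, 1.80, 1.29 and 0.438 on the high fat diet (exact permutation test p = 0.286, adjusted p = 0.476). Lcn2 exceeded Ltf in every control dam and fell short of it in high fat dam 2 and 3.

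How far the 8 calls depend on single dams was read by leaving out each library in turn. Without high fat dam 1, limma called 7 of the 8 genes lower, all but Pigr, where 68.9% of all tested genes were called. Without control dam 1, 2, 3, 4 or 5 it called 1, 4, 0, 0 and 1 of the 8, where 13.2%, 28.8%, 2.48%, 5.74% and 4.43% of all tested genes were called lower. Without high fat dam 2, 3 or 4 it called 0 each time, where the shares of all genes were 0.911%, 0.213% and 1.98%. At an unadjusted p under 0.05 these last fits held 5, 4 and 5 members. Of all 7907, 7972 and 7931 genes tested in them, 3338, 2273 and 2912 were lower and 7, 4 and 8 higher at that p.

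**Figure D4:**
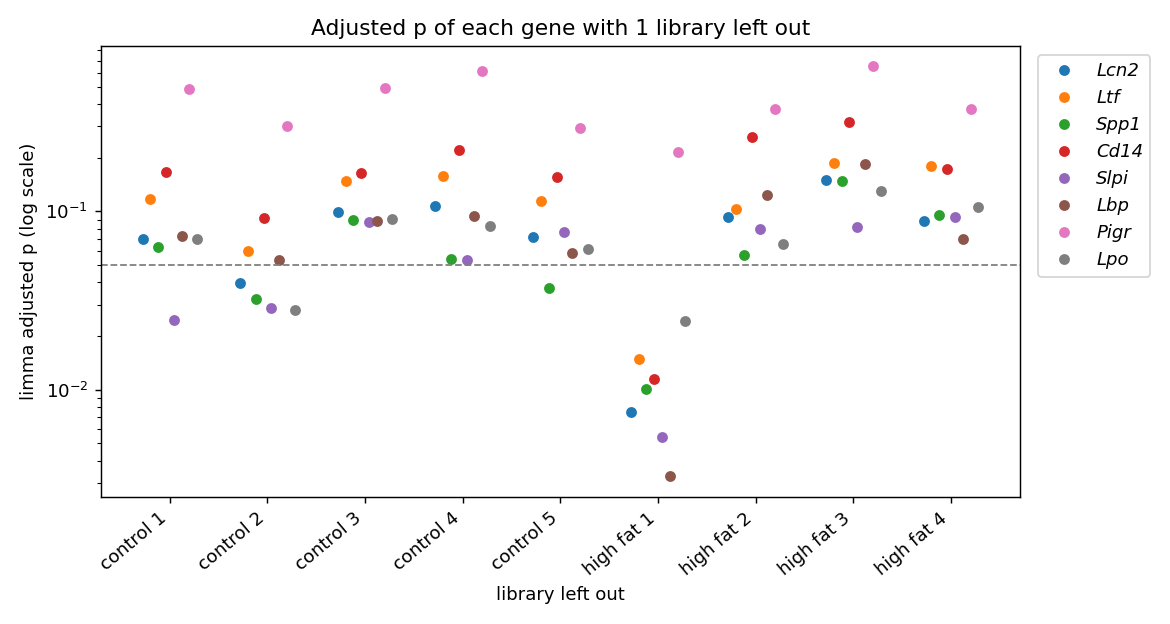
Limma adjusted p of each gene on a log axis with the library named on the x axis left out, 1 point per gene, and the threshold of 0.05 as a dashed line. Without high fat dam 1 every gene but Pigr lies under the threshold, and without high fat dam 2, 3 or 4 none does.

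The genes around these 8 were read from 5 lists, beside the 20.8% called lower and the median of -1.08 over all tested genes. Of the 24 list genes called, 22 were unlisted in at least 1 high fat dam and passed the filter of 4 libraries through the control dams, where they are high, so the counts support nothing further. Anxa1 and Anxa2 are the 2 listed in every high fat dam. Of 27 tested members of a list of other antimicrobial and defence proteins of secretions, 7 were called lower (25.9%, against 20.8% of all) and 0 higher by limma, with a median log2 fold change of -1.18, against -1.08. The first 6 by p were the acute-phase genes Orm2, Saa2, Orm1 and Saa1, the lectin Lgals3 and the phospholipid-binding Anxa1. Saa2, the most changed of them, was at 453 ± 342 FPKM (SD, n = 5) on the control diet and listed in 3 high fat dams at up to 105 (log2 fold change -4.08, limma adjusted p = 0.0102). Orm2 was at 25.7 ± 13.5 FPKM (SD, n = 5) and listed in 2 high fat dams at up to 11.2 (log2 fold change -3.14, limma adjusted p = 0.00633). Saa1 and Saa2, like Orm1 and Orm2, are near-identical copies, and how their shared fragments were split is uncertain. Lgals3 was at 14.2 ± 7.28 FPKM (SD, n = 5) on the control diet and listed in 3 high fat dams at up to 6.04 (log2 fold change -2.45, limma adjusted p = 0.0161). Anxa1 had 27.0 ± 8.38 FPKM (SD, n = 5) on the control and 5.33 ± 4.47 (SD, n = 4) on the high fat diet (limma adjusted p = 0.0259). Wap, a whey protein with the same kind of cysteine-rich domain as Slpi, was the most abundant of the list, at 13352 ± 3231 (SD, n = 5) against 7227 ± 4408 (SD, n = 4), and did not pass (limma adjusted p = 0.244).

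Of 20 tested members of lipopolysaccharide recognition and Toll-like receptor signalling, 7 were called lower (35.0%, against 20.8% of all) and 0 higher. Their median log2 fold change of -0.99 was less negative than the -1.08 of all genes. The first 6 by p were Rela, an NF-kB subunit, Tlr4, the kinases Ikbkb and Chuk, the adaptor Tollip and the regulator Nfkbiz, with limma adjusted p between 0.0281 and 0.0424. Rela, Tlr4 and Nfkbiz were listed in 1 high fat dam each. Tlr4, the receptor served by Lbp and Cd14, was at 1.88, 1.43, 2.72, 3.38 and 3.35 FPKM in control dams 1 to 5 and at 1.92 in high fat dam 1, and was unlisted in the other 3 (log2 fold change -1.40, limma adjusted p = 0.0357). It sat close to the floor in every library. Ly96 was listed in the same libraries at 1.02 to 1.82 FPKM and did not pass (limma adjusted p = 0.0749). Myd88, the adaptor below the receptor, was at 5.24 ± 3.02 (SD, n = 5) and did not pass (limma adjusted p = 0.117), nor did Nfkbia, the most abundant of the list (limma adjusted p = 0.190).

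Of 9 tested members of STAT3 and C/EBP acute-phase control, 3 were called lower (33.3%, against 20.8% of all) and 0 higher, with a median of -1.35, against -1.08. Cebpb was at 5.99 ± 1.40 FPKM (SD, n = 5) on the control diet, at 6.56 and 1.88 in high fat dam 1 and 2 and unlisted in 3 and 4 (limma adjusted p = 0.0379). Cebpd and Bcl3 were called too (limma adjusted p = 0.0430 and 0.0491). Stat3, the most abundant, was at 13.1 ± 4.49 (SD, n = 5) against 4.89 ± 4.18 (SD, n = 4) and did not pass (limma adjusted p = 0.0728). Of 7 tested receptors and partners of the member proteins, 4 were called lower (57.1%, against 20.8% of all) and 0 higher, with a median of -1.44, against -1.08. These were Itga8, listed in 0 high fat dams, and Itgb1, integrin subunits that bind osteopontin, the matrix protein Thbs1, listed in 1, and Anxa2, the most abundant of the list at 18.2 ± 5.46 (SD, n = 5) on the control and 3.92 ± 2.27 (SD, n = 4) on the high fat diet (limma adjusted p = 0.0322). Of 8 tested members of immunoglobulin A and its transport, 3 were called lower (37.5%, against 20.8% of all) and 0 higher, with a median of -1.42, against -1.08. They were the vesicle GTPase Rab3d, Marcks and the retromer subunit Vps35 (limma adjusted p = 0.0386, 0.0420 and 0.0491), while Rab11a, the most abundant, did not pass (0.0971). After median-of-ratios scaling the medians of the 5 lists were -0.29, -0.56, -0.63, -0.97 and -0.56, beside -0.55 over all tested genes.

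Of the 1847 genes listed in all 9 libraries, symbols that start with Gm or RP and a digit were left out, which left 1543 to compare with each member. The genes whose pattern was most like that of a member were sought among them, after median-of-ratios scaling. The measure was the root mean square difference of mean-centred log2 levels over the 9 libraries. For Ltf these were Stat3 and Actg1, at 0.21 each, and for Lcn2 Fxyd3 and Ftl1, at 0.37 and 0.42. Cd14 was nearest Tsc22d1 and Fxyd3, at 0.39 and 0.40. Slpi was nearest Sdc4 and Rnu1b6, at 0.39 each, and Sdc4 lies on the same strand of chromosome 2, 35151 bases from the annotated span of Slpi. Pigr was nearest Tbc1d13 and Epb41l4b, at 0.17 and 0.22, and Spp1 Hist1h3h and Krt19, at 0.62 and 0.70. The median difference over all compared genes was 0.57 for Pigr, 0.71 for Ltf and 0.88 to 1.23 for the other 4 members, so Spp1 had the least close neighbours.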

How the data were processed

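Total RNA of the milk fat layer of 9 mice was measured, 1 library per dam. Each deposited table holds FPKM per gene with a lower and an upper bound of its confidence interval, per the file headers. Cufflinks, TopHat, Bowtie2, HTSeq, DESeq2, Trimmomatic and FastQC appear in the submitters' processing notes. No version, strand setting or build was given in the sources used here. Every table starts just above 1 FPKM, so a gene at or below 1 has no row. Of 11206 gene identifiers, 9293 had the bounds of GENCODE M21 (GRCm38) after adding 1 to the start, the members among them except Cd14, so coordinates are read as GRCm38. Where a table repeated an identifier, the highest FPKM was kept.

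The 7983 genes that 4 or more libraries listed entered the test, and a missing row counted as 0. The model was limma (3.58.1, R 4.3.3) on log2(FPKM + 1), its variance trended on mean level, with a single term for diet. P-values were adjusted by Benjamini-Hochberg over all tested genes, with a threshold of 0.05. All 8 members passed the filter, and Lbp and Lpo would not have passed it on their high fat diet libraries, so their passing rests on the control diet. FPKM keeps no count, so the fragments behind a value were estimated as (FPKM/SD) squared, with the SD read from the upper bound at 2 SD. Neither these estimates nor the confidence bounds cover the spread between dams. The bounds can also hold more than counting error, so an estimate is not a plain count. For Lpo it was 3.57 at 3.90 FPKM in control dam 1 and 14.7 at 1.76 FPKM in control dam 3. Exact permutation tests over samples were 2-sided, over all arrangements of 9 libraries into 5 and 4, with a smallest possible p of 0.00794.

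The members and gene lists were chosen with earlier results of these data known. Of each list the text names up to 6 called genes by smallest unadjusted p and the most abundant gene, with Tlr4, Ly96, Myd88, Jchain and Igha in any case. Genes alike in pattern were taken by the smallest root mean square difference of mean-centred log2(FPKM + 1) after median-of-ratios scaling. Symbols that start with Gm or RP and a digit were left out of that search. Alternatives changed the pseudocount, the filter, the value of unlisted genes, the scaling, the variance model, library weights, the replicate number as a block and the libraries used. The ratios between members, the scaling joined with the block and the list counts under each alternative were added after seeing the data.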

Additional observations from a re-analysis of the deposited data

Results flagged for a closer look

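The level of Cd14 in high fat dam 1, 33.7 FPKM, lay far from the other 3 high fat dams, with a gap to the nearest of 0.835 of the group's range. Of 14 groups of values examined this way, 1 stood apart, and chance sets apart about 1 in 20.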

How the results depend on the processing

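As deposited, limma called 1662 genes, 5 of the 8 members and 24 list genes, with a median of -1.89 over the members. In the order of all genes, members and list genes, the counts were 145, 0 and 1 with a pseudocount of 0.1, and 1226, 1 and 18 with 5. They were 13, 0 and 0 without a filter, 15, 1 and 1 over genes listed in all 9 libraries, 87, 1 and 5 with unlisted genes set to 1, 11, 0 and 0 without a variance trend and 6727, 7 and 59 with library weights. Scaling by median of ratios, by quantiles or to protein-coding FPKM, and dropping high fat dams 2 and 3 at once, each left limma with 0, 0 and 0. At an unadjusted p under 0.05 these 4 settings held 4, 2, 6 and 3 members, with 1600, 464, 1968 and 1059 lower and 53, 163, 10 and 12 higher genes. Leaving out each library gave 17 to 5259 genes, 0 to 7 members and 0 to 55 list genes.

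The median over the members was -2.49 and -1.10 with pseudocounts of 0.1 and 5, -0.96, -0.70 and -1.05 under the 3 scalings, -1.13 without high fat dams 2 and 3, and -2.47 to -1.35 with each library left out. Over all tested genes the median was -2.09 and -0.45 with these pseudocounts and -0.55, -0.10 and -0.61 under the 3 scalings. It was -0.67 without high fat dams 2 and 3 and -1.40 to -0.77 with each library left out. Pigr turned positive, at 0.43, 0.67 and 0.28, under the 3 scalings, and at 0.34 with median-of-ratios scaling and the replicate block, and the cause was not tested. The other 7 members stayed negative under all alternatives run. Same-numbered libraries had correlations of deviations of 0.142, -0.285, 0.0431 and -0.0882. These values show no pairing by number, and so few of them cannot exclude it. With the replicate block limma called 33 genes, 0 members and 2 list genes, and with median-of-ratios scaling added 0, 0 and 0 with a median of -0.77, where 3 members, 667 lower and 21 higher genes had an unadjusted p under 0.05. For the counts and medians that moved, too, the cause was not tested. Of the members, Lpo and Slpi had the fewest estimated fragments, 2.31 and 4.07, both in high fat dam 2.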
